A study of Homo sapiens with 12 samples.

Results

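The GFP tracer libraries of one index set stood apart from their own replicates in a human fibrosarcoma line, and the difference had the shape of a stress response joined to a loss of cell-cycle transcripts. The cells were HT1080 clones that carry an inducible m6A-Tracer, a GFP fusion that binds DNA methylated at adenine. The study used it to follow contacts of chromatin with the nuclear lamina, which are marked by the bacterial methyltransferase Dam fused to lamin B1. Each of 6 groups had 2 libraries, 12 in all, and the titles reuse 6 index sequences in 2 sets, called index sets 1 and 2 here. The members are 2 of the 12 libraries, GFP_tracer and GFP_tracer_Dam of index set 1. They are set against the 2 libraries of the same groups in index set 2, and the pair of GFP_uninduced libraries is subtracted as the difference between the sets. These libraries were picked because their values stood apart, so their differences are described and carry no test.

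GFP_tracer cells were grown for 3 days with doxycycline and then for 24 h without it, which releases the tracer. GFP_tracer_Dam cells had the same 24 h without doxycycline together with 500 nM Shield1, a ligand that stabilises Dam-LaminB1. GFP_uninduced cells stayed in 50 ng/ml doxycycline for 4 days. VP16_tracer, VP16_tracer_Dam and VP16_uninduced are the same treatments in a clone whose tracer carries the VP16 activation domain. All groups had doxycycline for at least 3 days, and each tracer was carried by 1 clone, so clone and construct cannot be told apart. The design text calls the second library of each group a biological replicate, with no culture date or harvest given. The constructs themselves were not analysed here, so tracer and Dam-LaminB1 levels were not checked in any library.

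In the integrated stress response, kinases that sense missing amino acids, unfolded protein in the endoplasmic reticulum (ER), haem lack or double-stranded RNA phosphorylate the initiation factor eIF2. Translation then slows in general while that of the transcription factor ATF4 increases. ATF4, with partners of the C/EBP family, switches on genes for amino acid synthesis and uptake and the factor CHOP, the product of DDIT3. Genes of the cell cycle are in large part driven by E2F factors before S phase and by complexes bound at the CHR element, a short promoter sequence, before mitosis.

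Promoters of 5 members of these programmes hold elements of the kinds known to drive them. Each line gives the 250 bases before the start site, 5′ to 3′ on the gene's strand, from RefSeq on GRCh38.p14. In the first 3, chosen from the genes of the stress response, capitals mark the C/EBP-ATF response element (TGATGNAA, read on both strands). In E2F1 and MCM3, from the genes of S phase entry, capitals mark an E2F site (TTTCCCGC or TTTGGCGC, both strands).
CHAC1, chr15:40953221-40953470, plus strand: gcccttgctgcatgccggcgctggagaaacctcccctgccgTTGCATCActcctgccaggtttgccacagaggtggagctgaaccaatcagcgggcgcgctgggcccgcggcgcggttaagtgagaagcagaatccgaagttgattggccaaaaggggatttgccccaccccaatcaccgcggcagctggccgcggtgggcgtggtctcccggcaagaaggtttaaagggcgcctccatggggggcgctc
ASNS, chr7:97872409-97872658, minus strand: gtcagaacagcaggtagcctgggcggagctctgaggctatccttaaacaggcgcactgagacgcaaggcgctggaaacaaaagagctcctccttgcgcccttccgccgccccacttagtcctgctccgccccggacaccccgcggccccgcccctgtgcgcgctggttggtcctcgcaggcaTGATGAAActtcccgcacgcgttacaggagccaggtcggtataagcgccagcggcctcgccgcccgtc
ATF3, chr1:212565157-212565406, plus strand: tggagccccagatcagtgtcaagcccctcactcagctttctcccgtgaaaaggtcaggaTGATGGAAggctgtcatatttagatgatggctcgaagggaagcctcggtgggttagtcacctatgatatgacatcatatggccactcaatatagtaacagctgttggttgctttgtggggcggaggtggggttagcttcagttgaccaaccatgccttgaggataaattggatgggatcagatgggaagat
E2F1, chr20:33686386-33686635, minus strand: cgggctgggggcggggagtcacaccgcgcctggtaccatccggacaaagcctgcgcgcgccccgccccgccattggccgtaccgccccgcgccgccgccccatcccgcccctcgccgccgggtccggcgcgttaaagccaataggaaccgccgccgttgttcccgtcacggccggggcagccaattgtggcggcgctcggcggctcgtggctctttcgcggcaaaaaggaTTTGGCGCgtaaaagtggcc
MCM3, chr6:52284743-52284992, minus strand: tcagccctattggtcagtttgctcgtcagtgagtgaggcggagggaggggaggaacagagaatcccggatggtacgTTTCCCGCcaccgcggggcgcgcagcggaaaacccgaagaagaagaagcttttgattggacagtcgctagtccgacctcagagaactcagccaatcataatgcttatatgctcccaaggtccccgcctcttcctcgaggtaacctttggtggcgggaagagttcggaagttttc
The element of CHAC1 lies on the other strand, at -209 to -202 from the start site. That of ASNS lies at -68 to -61 and that of ATF3 at -191 to -184. The E2F site lies at -20 to -13 in E2F1 and at -174 to -167 in MCM3. Neither kind of site was found in the windows of DDIT3, IL8 and LMNB1, which run from 250 bases before to 50 after the start. An AP-1 site (TGANTCA) was found at -137 to -131 in IL8 and at -241 to -235 in DDIT3.

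The 6 GFP libraries held 20022620 to 24827396 counted reads. Levels are given as CPM, read counts scaled to a library of fixed size by TMM. The excess of a library is its log2 CPM less that of its replicate in index set 2, less the same difference in the uninduced pair. An excess of 1 is a 2-fold difference. Of 17262 genes tested, 1099 (6.37%) had an excess of at least 1 in both GFP_tracer and GFP_tracer_Dam, and 674 (3.9%) had one of at most -1 in both. By sign alone, 7528 of the 17262 genes had a positive excess in both libraries and 6968 a negative one. Counts of list members below are to be read against these shares. Both excesses subtract the same uninduced pair, so their agreement is no independent support. In the VP16 clone the same 2-fold rule held for 214 genes (1.24%) in the upward and 158 (0.915%) in the downward direction. The spread of the excess over all genes was 0.77 in GFP_tracer and 0.85 in GFP_tracer_Dam (SD over genes, log2), against 0.45 in VP16_tracer and 0.47 in VP16_tracer_Dam.

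**Figure D1:**
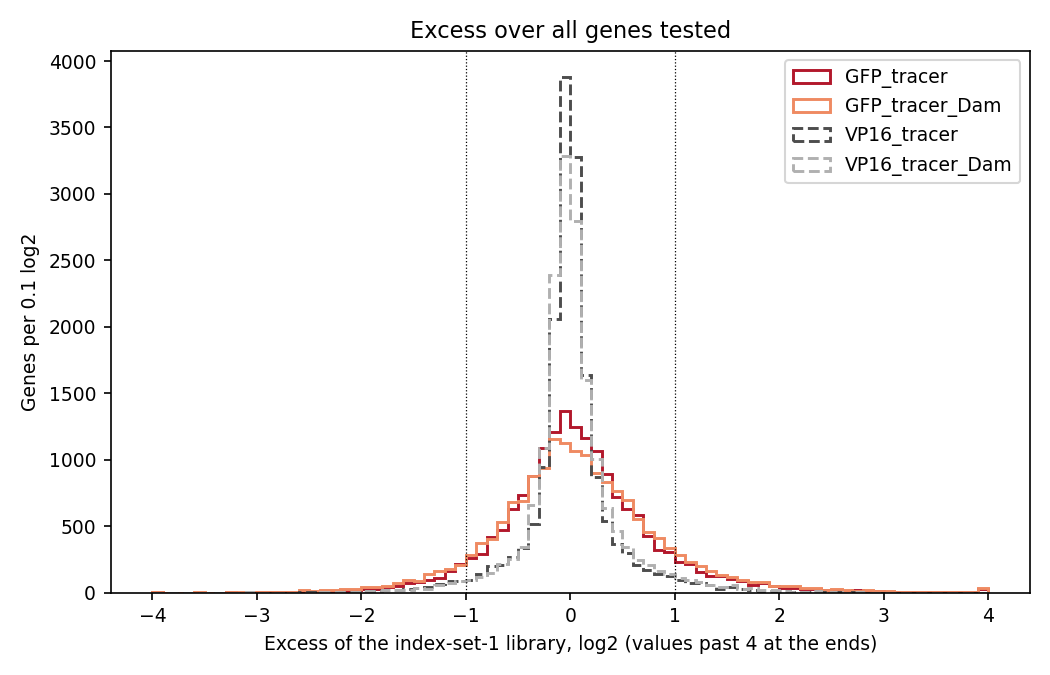
Number of genes per 0.1 log2 of excess (vertical axis) against the excess of the index-set-1 library (horizontal axis, log2) over 17262 genes, with dotted lines at 2-fold. The curves of the GFP clone (solid, SD 0.77 and 0.85) are wider than those of the VP16 clone (dashed, SD 0.45 and 0.47).

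Many of the higher genes were near the limit of detection. The 1099 higher genes had a median level of 1.49 CPM over the 6 GFP libraries, against 15.3 CPM over all genes tested, and 23.8% of them were already past 2-fold between the uninduced libraries, against 7.30% of all genes tested. The 674 lower genes had a median of 9.41 CPM, with 12.8% past 2-fold in the uninduced pair. Among the 10951 genes with a mean of at least 5 CPM, 348 (3.18%) were higher and 380 (3.47%) lower in both. That mean takes in the 2 libraries described, so it lets in genes that are high only there. The filter on low counts, set for groups of 2 libraries, can let in such genes too. In the VP16 clone, 1 of these 10951 genes was higher (ITGAX, 0.00913%) and 1 lower (SIGLEC14, 0.00913%), both named because they were the only ones. At the edge of the rule, SPIRE1 lay just inside with a smaller excess of 1.0001 and RBMX with one of -1.0005, and AC012307.3 just outside at 0.9998.

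The 2 index sets gave different pictures of the same induction. In index set 1, 1120 genes (6.49%) were at least 2-fold higher and 721 (4.18%) lower in GFP_tracer than in GFP_uninduced, and 1472 (8.53%) higher and 1032 (5.98%) lower in GFP_tracer_Dam. In index set 2 the counts were 141 (0.817%) and 179 (1.04%) for GFP_tracer, and 116 (0.672%) and 201 (1.16%) for GFP_tracer_Dam. Genes past 2-fold in both induced groups numbered 889 higher and 479 lower in set 1, against 40 higher and 24 lower in set 2, and 3 of the higher and 0 of the lower genes were shared.

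**Figure D2:**
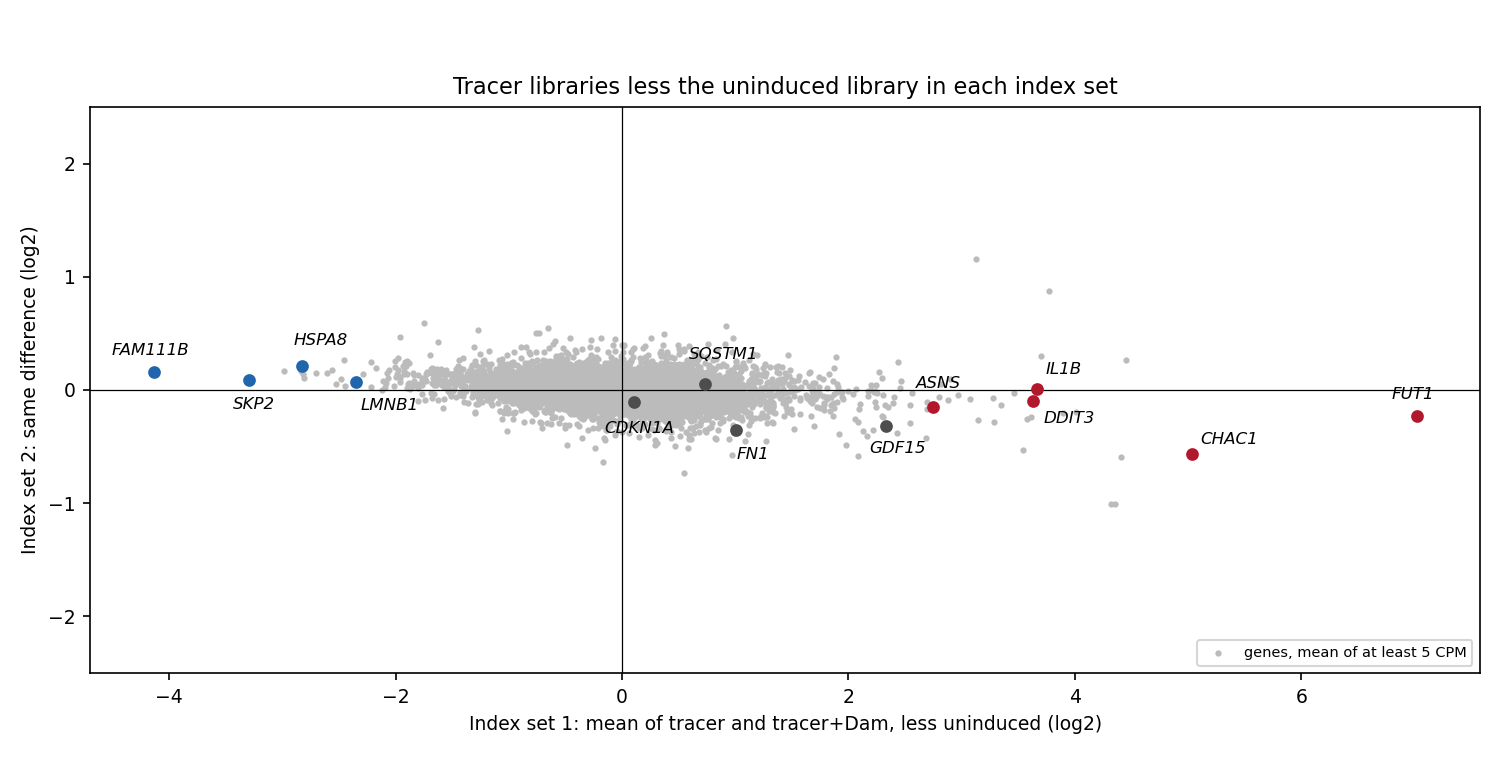
Mean log2 difference of GFP_tracer and GFP_tracer_Dam from GFP_uninduced in index set 1 (horizontal axis) and in index set 2 (vertical axis) for the 10951 genes with a mean of at least 5 CPM. Named higher genes are red, FUT1 among them, and named lower genes blue. FN1, CDKN1A, GDF15 and SQSTM1, in dark grey, already differed in the uninduced pair, as did CHAC1, in red. The genes spread far less along the vertical than along the horizontal axis.

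The uninduced libraries were not alike either. Between them, 810 genes (4.69%) were at least 2-fold higher and 450 (2.61%) lower in index set 1; in the VP16 clone 782 (4.53%) and 316 (1.83%) were. CDKN1A, the cell-cycle inhibitor p21, had 415 and 511 CPM in GFP_tracer and GFP_tracer_Dam of index set 1, 149.9 and 161 CPM in the same groups of set 2, and 428 and 167 CPM in GFP_uninduced of sets 1 and 2. Its level was thus about as high in the uninduced library of index set 1 as in the libraries described, and its excess was 0.11 and 0.30. SQSTM1, an autophagy receptor, had 586 and 239.7 CPM in the uninduced libraries of index sets 1 and 2, and FN1, fibronectin, had 520 and 2142 CPM. FN1 had 821 and 1338 CPM in the index-set-1 libraries of GFP_tracer and GFP_tracer_Dam, against 1581 and 1788 CPM in their replicates. Its excess of 1.10 and 1.62 thus comes from the uninduced pair, since both libraries lay below their replicates. Without the subtraction 1462 genes were higher and 749 lower, of which 699 and 405 were among the genes found with it.

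All 12 mesenchymal markers of HT1080, such as VIM and CD44, were detected in every library. Of the markers of other cell types, 3 of 8 epithelial, 1 of 7 blood, 3 of 4 endothelial and 4 of 4 neural genes passed the filter on low counts. The summed level of those that passed was 219 and 155 CPM for epithelial genes in GFP_tracer and GFP_tracer_Dam of index set 1, against 223 to 290.2 CPM in the other 4 GFP libraries. For blood genes, of which only CD68, also a lysosomal gene, passed, it was 200.4 and 235 CPM, against 117 to 183 CPM. For endothelial genes it was 3.29 and 2.77 CPM, against 0.98 to 2.35 CPM, and for neural genes 13.1 and 13.8 CPM, against 8.74 to 10.8 CPM. The leukocyte marker PTPRC did not pass. The part of other cells in the excess was not tested.

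The 5 genes that mark the state were the base of the choice, and their values define it. Lists below that hold any of these genes count them as members, so such counts and medians follow in part from the choice. DDIT3 had 93.6 and 77.4 CPM in GFP_tracer and GFP_tracer_Dam of index set 1, against 4.74 and 5.35 CPM in their replicates of index set 2 and 6.79 and 5.38 CPM in the uninduced libraries of sets 1 and 2. ASNS, asparagine synthetase, had 341 and 420 CPM, against 66.9 and 69.8 CPM in the replicates and 56.3 and 75.8 CPM in the uninduced libraries. CHAC1, which breaks down glutathione, had 81.1 and 76.0 CPM, against 4.64 and 4.72 CPM in the replicates and 2.31 and 6.97 CPM in the uninduced libraries. For each of these genes the 2 libraries of index set 1 were well above the other 4. IL8, a chemokine for neutrophils, had 65.3 and 52.7 CPM, against 5.06 and 6.37 CPM in the replicates and 7.81 and 5.30 CPM in the uninduced libraries. LMNB1, lamin B1 of the nuclear lamina, had 36.9 and 29.5 CPM, against 202.5 and 193.5 CPM in the replicates and 168 and 189 CPM in the uninduced libraries. It was the one of the 5 that lay below the other 4 libraries, with an excess of -2.28 in GFP_tracer and -2.54 in GFP_tracer_Dam. In the study's own comparison by edgeR's quasi-likelihood test over both index sets, DDIT3 differed between GFP_tracer and GFP_uninduced by 3.01 ± 1.34 and LMNB1 by -0.58 ± 0.85 (log2, SE, n = 2 each, adjusted p = 0.999 for both). Those tests hold the chosen libraries, and the gap between the index sets enters their spread.

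**Figure D3:**
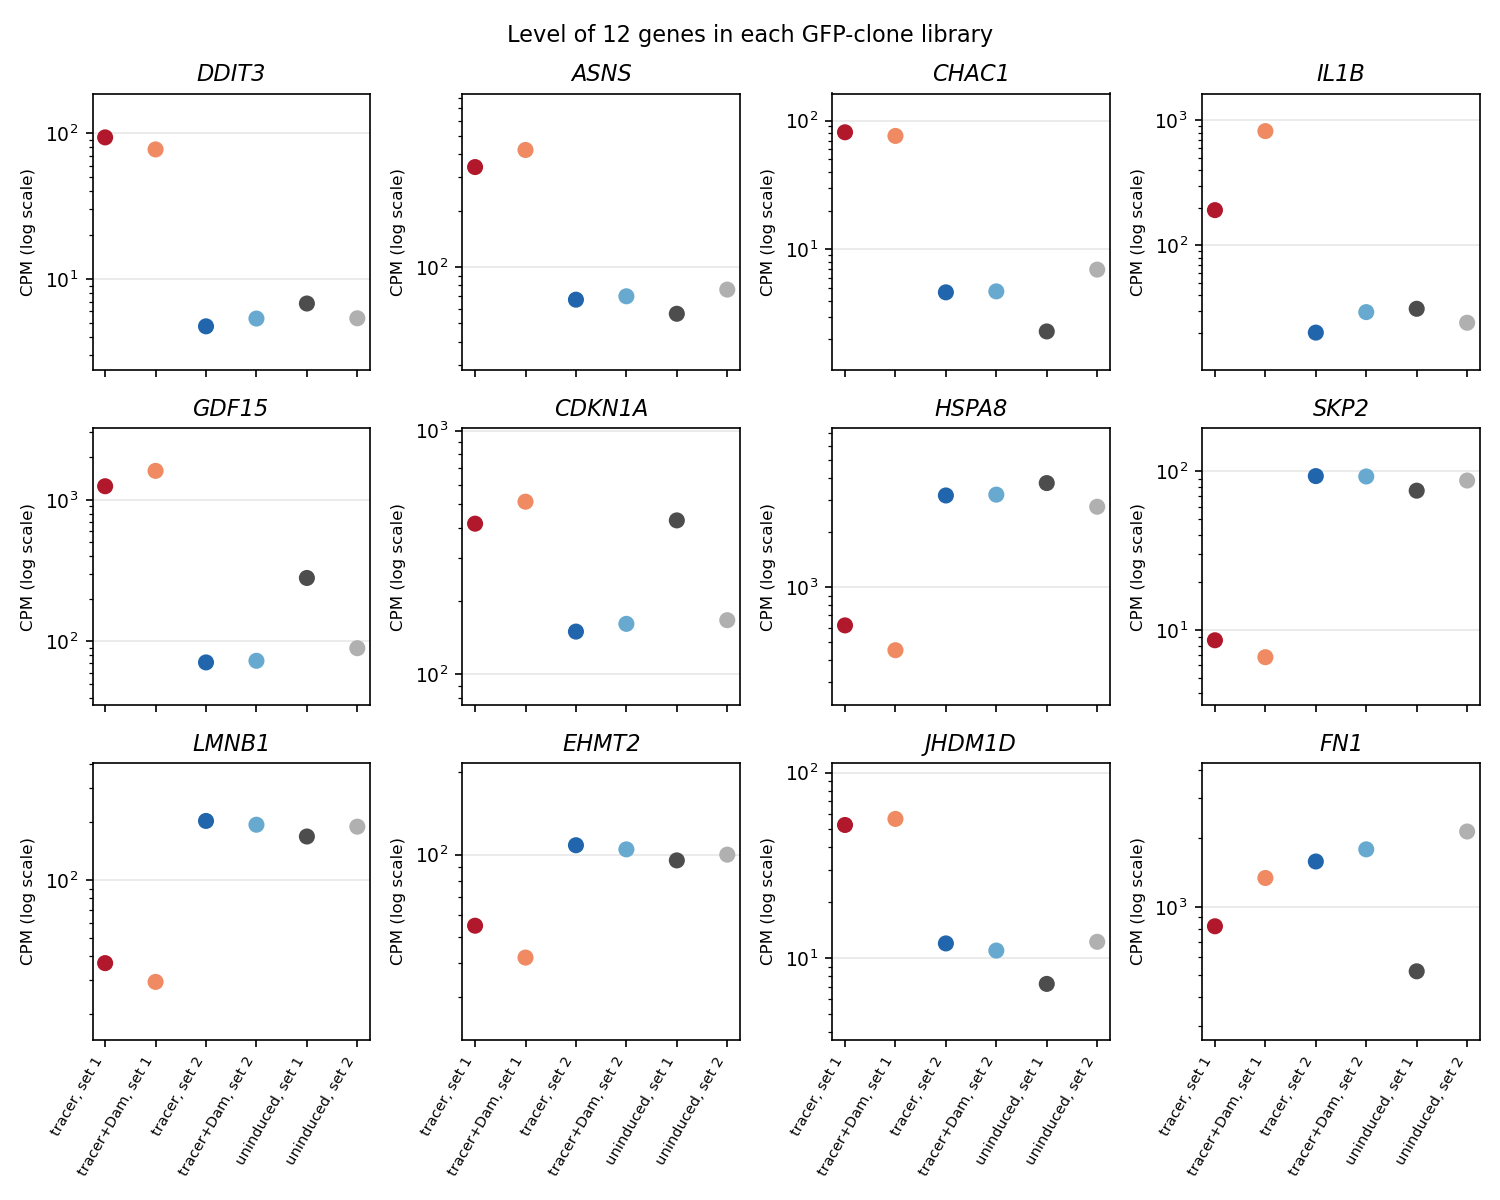
Level of 12 genes in CPM (vertical axis, log scale) in each of the 6 GFP libraries: GFP_tracer and GFP_tracer_Dam of index set 1 (reds), the same groups of index set 2 (blues) and GFP_uninduced of both sets (greys), 1 point a library. DDIT3, ASNS, CHAC1 and IL1B are high, and HSPA8, SKP2, LMNB1 and EHMT2 low, in the 2 red points; CDKN1A and FN1 also differ between the grey ones.

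Regulators around ATF4 and CHOP were high together. Of the 21 measured of 22 on the list, 16 were at least 2-fold higher and 1 at least 2-fold lower in both libraries, with a median excess of 2.45 in GFP_tracer and 2.73 in GFP_tracer_Dam, against 0.02 and 0.03 over all genes tested. DDIT3 and CHAC1, by which the libraries were chosen, are among the 16. ATF4 itself had 281 and 263 CPM in the index-set-1 libraries, against 179 and 179 CPM in the replicates and 122 and 196 CPM in the uninduced libraries. Its excess of 1.33 and 1.24 was smaller than those of DDIT3, ASNS and CHAC1. Part of the excess of ATF4 lay between the uninduced libraries. Against its replicates alone ATF4 was under 2-fold higher in both libraries, so it counts among the 16 only with the subtraction. The mean excess of CHAC1 was 5.60, and 4.04 without subtraction. TRIB3, a pseudokinase that feeds back on ATF4, had 346 and 320 CPM, against 56.6 and 55.2 CPM in the replicates and 51.3 and 62.9 CPM in the uninduced libraries. PPP1R15A, the phosphatase subunit that reverses eIF2 phosphorylation, had 487 and 536 CPM, against 49.6 and 46.2 CPM in the replicates and 92.9 and 47.4 CPM in the uninduced libraries. DDIT4, an inhibitor of the growth kinase mTORC1, had 159.7 and 134 CPM, against 15.6 and 15.7 CPM in the replicates and 12.5 and 22.7 CPM in the uninduced libraries. Activators and brakes of the response were thus both on the higher side. GDF15, a stress hormone, was at 1248 and 1603 CPM, against 71.0 and 72.9 CPM in the replicates, and 281 and 89.5 CPM in the uninduced libraries; part of its difference lay between the uninduced libraries. The member that was lower was ATF5, a relative of ATF4, at 24.7 and 14.98 CPM against 38.4 and 35.0 CPM in the replicates and 58.2 and 33.2 CPM in the uninduced libraries. Members named here beyond the 5 largest of each list were chosen after their values were seen.

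Enzymes that make serine, asparagine and one-carbon units were also high, 11 of 18 by 2-fold or more and 0 lower, with median excesses of 1.34 and 1.60. ASNS, by which the libraries were chosen, is among the 11. CTH, which makes cysteine from cystathionine, had 54.3 and 57.2 CPM in the index-set-1 libraries, against 4.74 and 4.60 CPM in the replicates and 3.37 and 5.34 CPM in the uninduced libraries. PSAT1, of the serine pathway, had 479 and 543 CPM, against 193 and 198 CPM in the replicates and 164 and 205 CPM in the uninduced libraries. The mitochondrial folate enzymes ALDH1L2 and MTHFD2 had excesses of 3.26 and 1.60 in GFP_tracer and of 3.87 and 1.72 in GFP_tracer_Dam.

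Amino acid transporters were higher for 9 of 15 measured and lower for 1, SLC16A10. SLC7A11, the cystine importer, had 291 and 279 CPM, against 57.4 and 60.2 CPM in the replicates and 23.3 and 69.5 CPM in the uninduced libraries. SLC7A5 and SLC3A2, the 2 chains of the large neutral amino acid transporter, had excesses of 1.86 and 2.02 in GFP_tracer and of 1.96 and 2.13 in GFP_tracer_Dam.

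Enzymes that load tRNA with amino acids were counted by compartment. Of 20 cytosolic synthetases 6 were at least 2-fold higher (AARS, CARS, GARS, SARS, WARS and YARS), and 5 were negative in both libraries, with medians of 0.43 and 0.44. Of 17 mitochondrial ones 0 were past 2-fold in either direction, with medians of -0.14 and -0.31. AARS, for alanine, had 495 and 540 CPM, against 203 and 201 CPM in the replicates and 146 and 212 CPM in the uninduced libraries.

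Some promoters of this programme held the element printed above. Over the 4 lists of regulators, enzymes, transporters and cytosolic synthetases, 61 of 74 measured members matched a promoter in the RefSeq table, and 15 of them (24.6%) held TGATGNAA within the 300 bases. It was present in 1.61% of the 8908 promoters matched among genes with a mean of at least 5 CPM, and in 3.62% of all 35116 promoters of the table. Among the 42 members at least 2-fold higher in both libraries, 10 of the 36 with a promoter held it (27.8%), and among the 32 other members 5 of the 25 with a promoter did (20.0%). A match describes letters and is not a measured binding site. The 4 lists were drawn up as genes of this response, so these shares describe the lists and not the libraries. Under 80% of the 32 other members matched a promoter, so their share of 20.0% is void as a comparison. The same search over all 348 higher and all 380 lower genes was void too, since under 80% of each set matched a promoter.

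Chaperones differed less or lay on the lower side. In the ER, medians were -0.04 and 0.05 over 29 measured chaperone and degradation genes. By 2-fold or more 3 of them were higher, against 6.37% of all genes tested. The 3 were ERN1, the sensor IRE1, XBP1, the factor whose mRNA it splices, and HERPUD1, of ER-associated degradation. ERN1 had 59.1 and 59.8 CPM, against 12.1 and 11.3 CPM in the replicates and 13.98 and 14.3 CPM in the uninduced libraries. Cytosolic heat shock proteins and chaperonins were negative in both libraries for 23 of 24 measured, with 4 past 2-fold and medians of -0.48 and -0.85. Over all genes tested, 6968 of 17262 were negative in both and 3.9% lower by 2-fold or more. HSPA8, the constitutive HSC70, had 618 and 451 CPM, against 3194 and 3228 CPM in the replicates and 3736 and 2769 CPM in the uninduced libraries. DNAJA1, its co-chaperone, had 184 and 148 CPM, against 404 and 406 CPM in the replicates and 443 and 387 CPM in the uninduced libraries. The other 2 were HSPA1A and HSPA1B, which are near-identical copies, so reads cannot be assigned between them with certainty.

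Inflammatory genes were high as well. Of 15 measured cytokines and chemokines of 23 listed, 12 were at least 2-fold higher and 0 lower, with median excesses of 1.84 and 2.24. Members high only in the 2 libraries described can pass the filter on low counts, so this count and these medians may lean upward. Of the 20 listed genes in the data, 0 had no reads in either index-set-1 library, against 3 and 2 in the replicates and 3 and 3 in the uninduced libraries. CXCL1, CXCL2 and CXCL6 of that list were not analysed here. IL1A had 50.4 and 105.1 CPM in GFP_tracer and GFP_tracer_Dam of index set 1, against 3.44 and 3.29 CPM in the replicates and 3.24 and 2.79 CPM in the uninduced libraries. IL6 had 24.8 and 24.2 CPM, against 1.16 and 2.15 CPM in the replicates and 3.73 and 2.15 CPM in the uninduced libraries. IL11 had 153 and 246 CPM, against 18.7 and 18.8 CPM in the replicates and 24.8 and 19.3 CPM in the uninduced libraries. For these the index-set-1 libraries again lay above the other 4, but the genes were named for their large excess. The share of all genes with such a gap was not counted. CCL5 and IL32 were already high in the uninduced library of index set 1, at 6.48 against 0.92 CPM and at 14.9 against 3.35 CPM in that of index set 2.

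Of 20 NF-kB subunits and feedback genes, 5 were higher and 0 lower, with medians of 0.70 and 0.76. TRAF1, an adaptor of tumour necrosis factor receptors, had 154 and 102 CPM, against 17.8 and 19.1 CPM in the replicates and 26.6 and 18.6 CPM in the uninduced libraries. NFKB2 and RELB, which form the noncanonical NF-kB dimer, had excesses of 1.43 and 1.46 in GFP_tracer and of 1.68 and 1.37 in GFP_tracer_Dam. Of 26 immediate-early genes 8 were higher and 0 lower, among them EGR1 at 34.2 and 15.5 CPM, against 1.02 and 0.89 CPM in the replicates and 1.69 and 0.76 CPM in the uninduced libraries.

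Genes of growth arrest gave a mixed picture. Of 19 measured CDK inhibitors and arrest genes 5 were higher and 1 lower, with medians of 0.11 and 0.30, and of 28 p53 targets 3 were higher, GADD45A, PMAIP1 and SESN2, with medians of 0.13 and 0.28. Averaged over both libraries, the median of the p53 targets was 0.21 with the GFP_uninduced pair subtracted, 0.73 with no subtraction and -0.02 with the VP16_uninduced pair subtracted. GADD45A, a stress-induced arrest factor, had 415 and 357 CPM, against 45.7 and 46.3 CPM in the replicates and 65.0 and 46.9 CPM in the uninduced libraries. TXNIP, an inhibitor of thioredoxin and glucose uptake, had 165.1 and 209 CPM, against 11.7 and 12.1 CPM in the replicates and 20.9 and 14.3 CPM in the uninduced libraries. CDKN2C, the INK4-type inhibitor p18, went the other way, at 7.80 and 4.40 CPM against 62.2 and 59.8 CPM in the replicates and 47.0 and 54.3 CPM in the uninduced libraries. Of 16 autophagy genes 2 were higher, MAP1LC3B and WIPI1, and 15 had a positive excess in both libraries. Over all genes tested, 6.37% were at least 2-fold higher, 3.9% lower, and 7528 of 17262 positive in both libraries.

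Cell-cycle lists lay on the lower side in both libraries. Of 26 G1/S and E2F genes 14 were at least 2-fold lower in both libraries and 1 higher, with medians of -1.63 and -1.60. SKP2, the ubiquitin ligase subunit that removes the CDK inhibitor p27, had 8.64 and 6.76 CPM, against 93.3 and 92.8 CPM in the replicates and 75.5 and 87.5 CPM in the uninduced libraries. CCNE2, cyclin E2, had 2.55 and 1.63 CPM, against 16.8 and 15.2 CPM in the replicates and 14.9 and 14.5 CPM in the uninduced libraries. E2F2, an activating E2F, had 2.85 and 1.34 CPM, against 16.5 and 14.5 CPM in the replicates and 14.2 and 14.3 CPM in the uninduced libraries. The higher member was E2F7, a repressor of the family, at 357 and 376 CPM against 141 and 150.1 CPM in the replicates and 135 and 135 CPM in the uninduced libraries. E2F8, its close relative, lay in the opposite direction, with excesses of -2.31 and -2.55.

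Of 32 replication factors 16 were at least 2-fold lower, 31 were negative in both libraries, and the medians were -1.02 and -1.49. MCM4, of the replicative helicase, had 180 and 80.5 CPM, against 487 and 470 CPM in the replicates and 444 and 458 CPM in the uninduced libraries. FEN1, the flap nuclease of lagging-strand synthesis, had 46.4 and 37.3 CPM, against 179 and 177 CPM in the replicates and 180 and 169 CPM in the uninduced libraries. All 39 G2/M and mitosis genes were negative in both libraries, against 6968 of the 17262 genes tested. Of the 39, 22 were past 2-fold, and the medians were -1.07 and -1.34. MKI67, the proliferation antigen Ki-67, had 201 and 151 CPM, against 938 and 901 CPM in the replicates and 591 and 872 CPM in the uninduced libraries. CCNB1, cyclin B1, had 73.5 and 57.5 CPM, against 290 and 294 CPM in the replicates and 241 and 282 CPM in the uninduced libraries. In bulk RNA fewer cells in a phase and less RNA per cell cannot be told apart.

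Of 25 DNA repair genes 9 were at least 2-fold lower and 24 negative in both, with medians of -0.74 and -1.39. Over all genes tested, 3.9% were at least 2-fold lower and 6968 of 17262 negative in both. MSH6, of mismatch repair, had 55.9 and 47.1 CPM, against 217 and 204 CPM in the replicates and 187 and 204 CPM in the uninduced libraries. Replication-dependent histones, whose mRNAs mostly lack poly(A) tails, did not follow, with medians of 0.36 and 0.49 over the 14 of 24 measured. Between the uninduced libraries that list already stood 1.03 higher in index set 1 (median, log2).

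Over the lists of G1/S, replication and mitosis genes, 79 of 97 matched a promoter. An E2F site as spelled above was found in 27.8% of them, against 3.94% of the 8908 promoters of genes with a mean of at least 5 CPM. The CHR element (TTTGAA, both strands) was found in 29.1% of them, against 9.45%. Over all 35116 promoters the shares were 2.27% and 15.2%. The lists were drawn up as genes of these programmes, E2F genes among them, so the shares describe the lists and not the libraries.

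Of the genes outside these lists that the rule for named genes picked, FUT1 and FAM111B had the largest differences in each direction among genes with a mean of at least 5 CPM that were close in the uninduced pair. The mean is over the 6 GFP libraries, so it takes in the 2 libraries described. FUT1, TNFSF15 and TSC22D3, for example, reach 5 CPM only through these 2, as do CTH and IL1A above. The folds of FUT1 and TNFSF15 rest on low values elsewhere. FUT1, a fucosyltransferase that makes the H blood group antigen, had 61.1 and 54.2 CPM, against 0.46 and 0.46 CPM in the replicates and 0.36 and 0.56 CPM in the uninduced libraries. FAM111B, a protease gene linked to a hereditary fibrosing skin disorder, had 3.63 and 2.48 CPM, against 52.1 and 52.8 CPM in the replicates and 54.4 and 47.0 CPM in the uninduced libraries. TNFSF15, a cytokine of the tumour necrosis factor family, had 32.2 and 38.9 CPM, against 0.70 and 0.80 CPM in the replicates and 1.69 and 1.59 CPM in the uninduced libraries. TSC22D3, the glucocorticoid-induced leucine zipper, had 49.9 and 45.4 CPM, against 5.11 and 5.40 CPM in the replicates and 3.11 and 6.05 CPM in the uninduced libraries. The others were BEST1, RAB39B and PTPDC1, with smaller excesses of 5.22, 3.44 and 3.23, and, among lower genes, ERCC6L, CDCA2, FAM83D, LPCAT1 and the mitochondrial gene J01415.3, between -2.78 and -2.35.

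**Figure D4:**
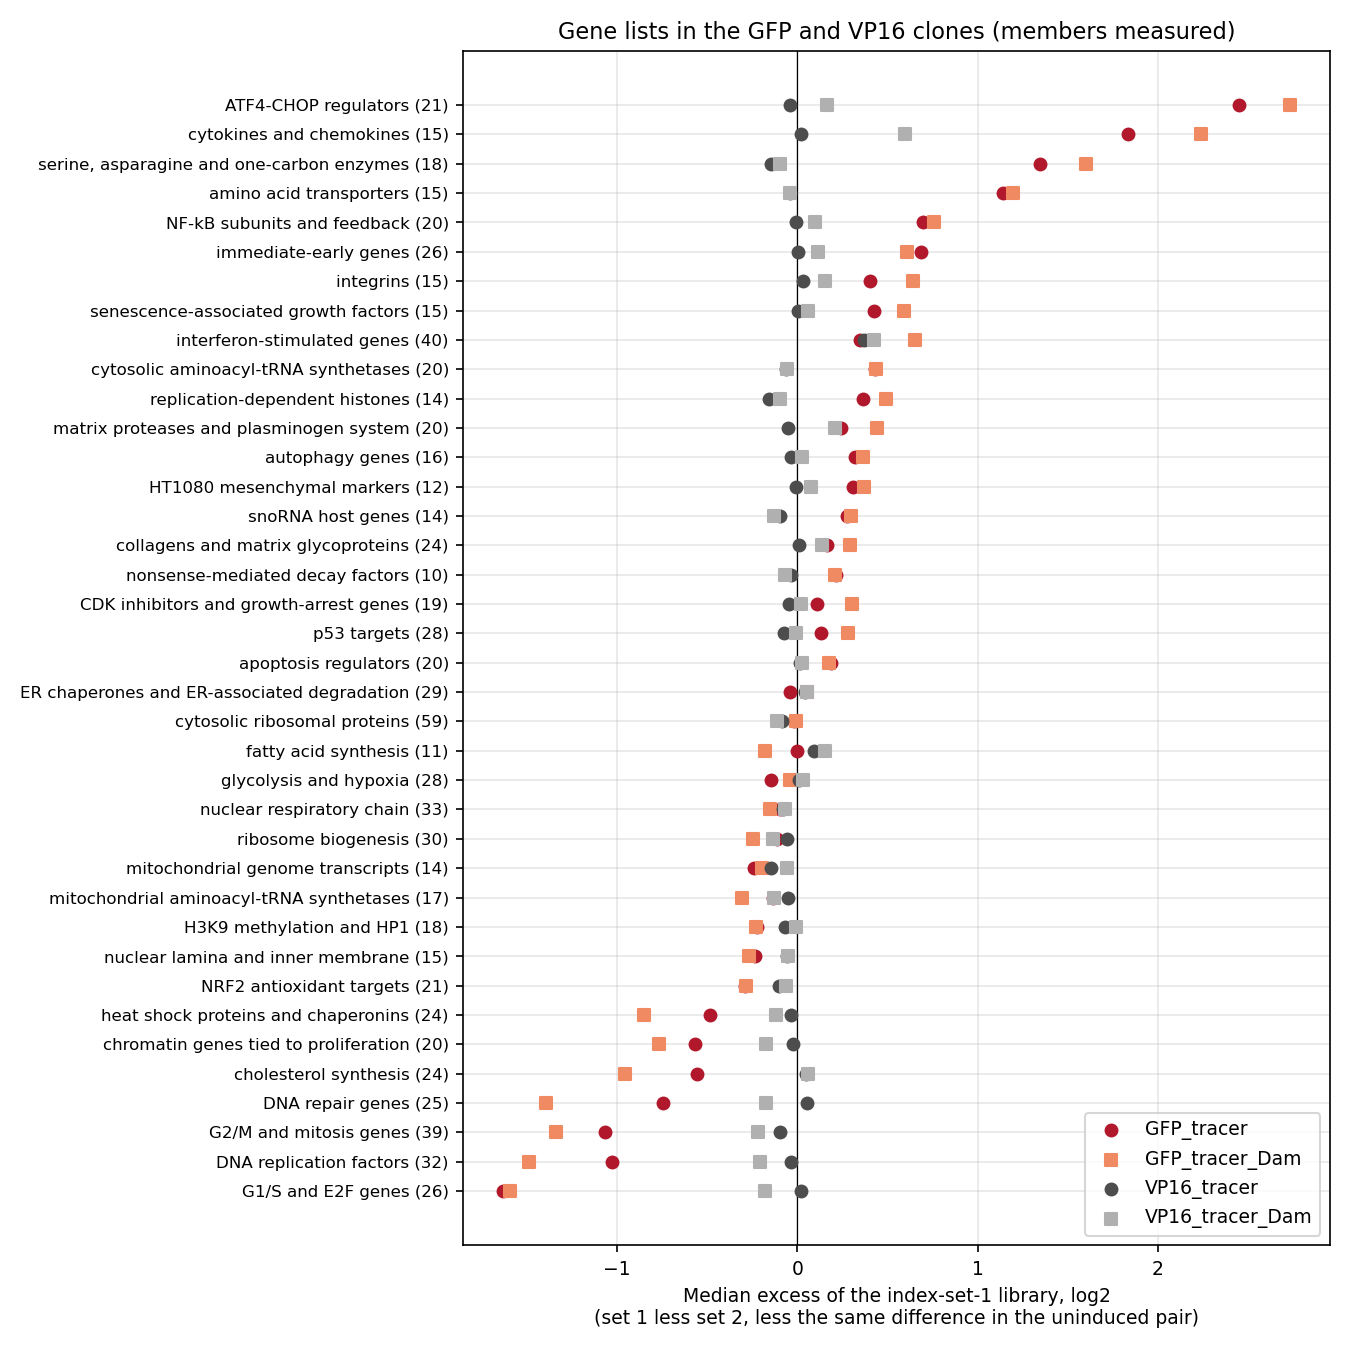
Median excess (horizontal axis, log2) of each gene list with at least 10 measured members (vertical axis, number of members in brackets) in GFP_tracer and GFP_tracer_Dam (reds) and in VP16_tracer and VP16_tracer_Dam (greys). The lists at the ends, ATF4-CHOP regulators at 2.45 and 2.73 and G1/S genes at -1.63 and -1.60, are apart in the GFP clone, while most grey points lie near 0.

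The study asked about the nuclear lamina and the methylation of histone H3 at lysine 9 (H3K9), and genes of that machinery were counted in the same libraries. Of 15 genes of the lamina and inner nuclear membrane 3 were at least 2-fold lower (LMNB1, LMNB2 and TMPO) and 1 higher (SYNE1), with medians of -0.23 and -0.27. LMNB1 is a gene by which the libraries were chosen. TMPO, which encodes the lamin-binding LAP2 proteins, had 94.6 and 65.2 CPM, against 231 and 224 CPM in the replicates and 191 and 203 CPM in the uninduced libraries. LMNB2 had 286 and 198 CPM, against 643 and 599 CPM in the replicates and 549 and 608 CPM in the uninduced libraries. Of 18 genes of H3K9 methylation 2 were lower and 1 higher, against 3.9% and 6.37% of all genes tested, with medians of -0.22 and -0.23. EHMT2, the H3K9 dimethylase G9a, had 54.9 and 42.0 CPM, against 108 and 104.5 CPM in the replicates and 95.2 and 99.98 CPM in the uninduced libraries. Its partner EHMT1 had 59.5 and 56.2 CPM, against 89.6 and 91.4 CPM in the replicates and 87.7 and 93.7 CPM in the uninduced libraries. Neither passed the 2-fold rule in both libraries, with excesses of -0.91 and -1.24 for EHMT2 and of -0.50 and -0.61 for EHMT1. JHDM1D, an H3K9 and H3K27 demethylase, had 52.3 and 56.3 CPM, against 12.0 and 11.0 CPM in the replicates and 7.28 and 12.3 CPM in the uninduced libraries. The lower pair were UHRF1 and SUV39H1, of which UHRF1 is also on the G1/S list. LMNB1 counts may include reads of the Dam-LaminB1 fusion in any of the GFP libraries, and the share of such reads was not tested.

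Metabolic and housekeeping genes set the frame. Of 24 cholesterol synthesis genes 7 were lower and 0 higher, with medians of -0.56 and -0.95. HMGCS1 had 39.2 and 40.3 CPM, against 114 and 120.4 CPM in the replicates and 113 and 106 CPM in the uninduced libraries. Of 59 cytosolic ribosomal protein genes 0 were past 2-fold, with medians of -0.02 and -0.01. The 33 nuclear respiratory chain genes and 30 ribosome biogenesis genes had 0 past 2-fold too. Of 14 snoRNA host genes, whose spliced transcripts are often destroyed by nonsense-mediated decay, 5 were higher and 0 lower. GAS5 had 435 and 451 CPM, against 156 and 157 CPM in the replicates and 148 and 154 CPM in the uninduced libraries. SNHG1 had 479 and 333 CPM, against 104 and 98.8 CPM in the replicates and 112 and 91.8 CPM in the uninduced libraries. VEGFA, the angiogenic growth factor, had 516 and 876 CPM, against 182 and 189 CPM in the replicates and 115 and 203 CPM in the uninduced libraries.

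The 2 libraries that stood apart also differed from each other. In index set 1, 267 genes (1.55%) were at least 2-fold higher and 163 (0.944%) lower in GFP_tracer_Dam than in GFP_tracer, against 155 (0.898%) and 175 (1.01%) in index set 2. IL1B had 822 CPM in GFP_tracer_Dam and 192 CPM in GFP_tracer of index set 1, against 29.3 and 20.1 CPM in the same groups of set 2. KLF9, a glucocorticoid-responsive factor, had 127 CPM in GFP_tracer_Dam and 34.1 CPM in GFP_tracer of index set 1, against 31.9 and 28.9 CPM in set 2. MMP9, a gelatinase, had 256 and 111 CPM in these index-set-1 libraries, against 27.9 and 31.1 CPM in set 2. The replication, G1/S and repair lists were lower in GFP_tracer_Dam, with medians of -0.58, -0.56 and -0.52 in index set 1 and of -0.04, -0.06 and -0.02 in index set 2. Cytokines were higher, with a median of 0.68 in set 1 and 0.33 in set 2, while ATF4-CHOP regulators had -0.09 in set 1. By edgeR over both sets, 0 of 17262 genes were called (0.0%) between GFP_tracer_Dam and GFP_tracer, with 80 at an unadjusted p under 0.05. IL1B differed by 2.01 ± 1.31 (log2, SE, n = 2 each, adjusted p = 1.0). DESeq2, limma-voom and edgeR with index sets as blocks also called 0, with 32, 68 and 215 genes at an unadjusted p under 0.05.

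With the libraries that stood apart averaged with their replicates, the study's comparisons with uninduced cells called no gene. For GFP_tracer against GFP_uninduced edgeR called 0 of 17262 (0.0%), with 125 at an unadjusted p under 0.05, and for GFP_tracer_Dam against GFP_uninduced 0 (0.0%), with 228. DESeq2 called 0 in both, with 128 and 284 such genes, as did limma-voom, with 104 and 204, and edgeR with the index sets as blocks, with 385 and 795. In simulated data of the first comparison edgeR recovered 7 of 67 genes changed by 2-fold and 47 of 66 changed by 4-fold. With the block it recovered 39 of 67 and 63 of 66, with 12 false calls. Without the 2 libraries, and with the block, 1 gene passed in GFP_tracer, MIR663B, at a log2 difference of 5.34 (adjusted p = 4.47e-06). That value rests on 1 library, GFP_tracer of index set 2, which had 13.97 CPM, against 0.17 to 0.44 CPM in the other 5 GFP libraries; it was named because it was the only one, and microRNA precursors with near-identical copies are uncertain.

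The VP16 clone gave a check on induced libraries that played no part in the choice. There the contrast is the induced VP16 libraries of index set 1 less those of index set 2, less the index-set difference of uninduced libraries. That difference is fitted jointly to the GFP_uninduced and VP16_uninduced pairs, so the GFP_uninduced pair subtracted above enters it too. The contrast was fitted by edgeR over all 12 libraries with 3 residual degrees of freedom. It called 0 of 17262 genes (0.0%), with 975 at an unadjusted p under 0.05. DDIT3 differed by -0.02 ± 0.19 (log2, SE, adjusted p = 0.992) and CHAC1 by 0.21 ± 0.20 (adjusted p = 0.902). LMNB1 differed by -0.22 ± 0.11 and IL8 by 0.38 ± 0.23 (adjusted p = 0.879 for both). ASNS had the smallest p of all genes and the opposite sign from the GFP clone, at -0.71 ± 0.10 (adjusted p = 0.111). SAMD9 and PARP9, both induced by interferon, followed at 0.78 ± 0.12 and 0.95 ± 0.14 (adjusted p = 0.111 for both). DESeq2 called 8 genes, among them ASNS, lower at -0.70, and OAS3, PARP9, PARP14, SAMD9, NLGN2 and RP4-697K14.7, all higher.

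Interferon-stimulated genes had positive medians in both clones, 0.35 and 0.65 in GFP_tracer and GFP_tracer_Dam and 0.37 and 0.42 in VP16_tracer and VP16_tracer_Dam. With the VP16_uninduced pair subtracted in place of the GFP one, the GFP median was -0.04. In the GFP clone 7 of 40 were at least 2-fold higher in both libraries, among them RSAD2 (viperin), at 19.04 and 32.03 CPM, against 0.65 and 0.68 CPM in the replicates and 5.59 and 0.88 CPM in the uninduced libraries. None of the 4 amino acid lists, and none of the lists of G1/S, replication, mitosis and repair genes, had a member past 2-fold in both VP16 groups. Over all genes tested 1.24% were higher and 0.915% lower there, and at a mean of at least 5 CPM 0.00913% each. A count of 0 is thus near the share over all genes. Among cytokines the VP16 count was 1 of 15, and among the 40 interferon-stimulated genes 2 were higher and 1 lower.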

How the data were processed

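Expression was profiled in 12 libraries of the HT1080 line, 2 in each of 6 groups, from Trizol-extracted total RNA prepared with a TruSeq kit, per the labels' protocols. The submitters' processing notes name TopHat 1.4.0, Bowtie 0.12.7, HTSeq and the build GRCh37. Neither the HTSeq version nor its strand setting is given there, so overlapping antisense genes are uncertain. The authors deposited raw counts per gene for 36502 genes, with 18774905 to 24827396 counts per library.

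Genes were kept by filterByExpr (17262), scaled by TMM and tested with edgeR 4.0.16 under R 4.3.3 (quasi-likelihood, 1 coefficient per group, all 12 libraries, 6 residual degrees of freedom), with Benjamini-Hochberg adjustment at 0.05. Log2 CPM used a prior count of 2. P-values set a difference against the spread between these libraries. In the fits without a term for the index set, the gap between the sets enters that spread. DESeq2 1.42.0, limma 3.58.1 (voom), RLE factors, no filter on counts, the index set as a block, other subtractions and leaving out each library were tried. As for the pairing, deviations of libraries in 1 index set correlated at 0.35 to 0.94 across genes in each of the 15 pairs tried, so the sets were taken to pair the libraries. The main tests between groups held no term for the index set, and only the fits with the block used this pairing. Replicates differed beyond sampling noise in every group, by 19.6 to 126.3 in chi-square per degree of freedom. The tests were run on simulated data, where edgeR recovered 47 of 66 genes changed by 4-fold in the comparison of GFP_tracer with GFP_uninduced, and made 0 false calls among 17001 genes. With the block, 63 of 66 were recovered, with 12 false calls; in the VP16 contrast 48 of 66 were, with 7 false calls among 17004 genes.

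The members and the 43 gene lists (910 genes, 891 in the table) were chosen with earlier results of these data known. Genes were named by rule: 15 per direction with the largest excess in both libraries, a mean of at least 5 CPM and under 2-fold between the uninduced libraries; up to 5 members per list with a mean of at least 1 CPM and the largest mean excess; the marker genes DDIT3, ASNS, CHAC1, IL8 and LMNB1; and ATF4, CDKN1A, EHMT1 and EHMT2. Promoters came from RefSeq on GRCh38.p14, matched by symbol; their coordinates are not on the build of the counts.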

Additional observations from a re-analysis of the deposited data

Results flagged for a closer look

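For 9 gene lists and 5 single genes, both GFP groups lay on one side of 0 in the excess of index set 1 and both VP16 groups on the other. The difference between the clones was not tested, since the GFP libraries were chosen by these values, and several of the VP16 values are close to 0. The values that follow are the mean excess of the GFP groups less that of the VP16 groups, on the log2 scale.

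Among the lists, the difference was 1.59 for enzymes of serine, asparagine and one-carbon synthesis and 1.21 for amino acid transporters. It was 0.49 for cytosolic aminoacyl-tRNA synthetases, 0.40 for snoRNA host genes and 0.26 for nonsense-mediated decay factors. For replication-dependent histones it was 0.55, and for p53 targets 0.25. Cholesterol synthesis genes differed by -0.81 and glycolysis and hypoxia genes by -0.11.

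Among the genes, DDIT3 differed by 3.76, ASNS by 3.56, ATF4 by 1.43, CDKN1A by 0.35 and EHMT2 by -1.13. ASNS was the gene for which the VP16 values were far from 0, at -0.64 in VP16_tracer and -0.68 in VP16_tracer_Dam, against 2.77 in GFP_tracer and 3.02 in GFP_tracer_Dam. For DDIT3 the VP16 values were -0.04 and -0.04.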

How the results depend on the processing

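Scaling by RLE, a prior count of 0.5, no subtraction and subtraction of the VP16_uninduced pair kept the counts of higher and lower genes within 1.5 times, but not always the genes. Of the 1099 higher genes 699 were among the 1462 found without subtraction and 661 among the 1114 found with the VP16_uninduced pair; of the 674 lower genes 405 were among 749 and 430 among 770. Of 211 named genes 119 moved without subtraction by more than the SD between GFP_tracer and GFP_tracer_Dam, and 96 with the VP16_uninduced pair; of the 43 list medians 29 and 25 did. That of cytokines was 2.04, and 3.12 without subtraction and 2.40 with the VP16_uninduced pair. Higher genes numbered 348 at a mean of at least 5 CPM, 2477 at a fold of 1.5 and 218 at a fold of 4, against 1099; lower genes numbered 380, 1859 and 57, against 674. Of 211 named genes, 1 with a mean excess past 2-fold turned without subtraction, FN1 (mean excess -0.68), and 1 such gene with the VP16_uninduced pair subtracted, MX1 (-0.39), both positive otherwise. Of the 43 list medians, 8 changed sign under at least 1 of these 4 settings: interferon-stimulated genes (0.50, and -0.04 with the VP16_uninduced pair subtracted), NRF2 targets (-0.29, and 0.03 without subtraction), endothelial markers (0.70, and -0.25 with the VP16_uninduced pair), and p53 targets, metallothioneins, ribosome biogenesis, ribosomal proteins and ER chaperones, all under 0.25 in size with the GFP_uninduced pair subtracted.

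With the index set as a block, GFP_tracer and GFP_tracer_Dam against GFP_uninduced and GFP_tracer_Dam against GFP_tracer stayed at 0 calls. Leaving out 1 library at a time gave 0 to 1 calls in GFP_tracer against GFP_uninduced, 0 to 1 in GFP_tracer_Dam against GFP_tracer (1 without GFP_tracer replicate 1 in both) and 0 in the third comparison. Without both index-set-1 libraries, and with the block, these were 1, 1 and 0; for GFP_tracer_Dam against GFP_tracer this setting was chosen after seeing the data. The 1 call was MIR663B each time. The VP16 contrast of the index sets had calls with DESeq2 (8), with no filter on low counts (90) and in fits that left out 1 library (0 to 30: 29 without VP16_uninduced replicate 1, 30 without replicate 2); the cause was not tested.

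Each library described stands alone in its index set, so its excess has no replicate error. For DDIT3 the counting error of the excess in GFP_tracer was 0.22 and for ASNS 0.07 (log2, counting error only). Genes near 1 CPM are limited by depth.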

Other observations

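Other gene groups were counted against the 6.37% of all genes tested that were higher, and the 3.9% lower, in both GFP tracer libraries of index set 1. Among 20 measured matrix proteases and genes of the plasminogen system, 3 were at least 2-fold higher in both, MMP9, MMP10 and SERPINB2, with list medians of 0.24 and 0.44. The mean excess of MMP9 was 2.01, and 0.87 with the VP16_uninduced pair subtracted. SERPINB2, an inhibitor of plasminogen activators, had 0.25 CPM in GFP_tracer and 7.16 CPM in GFP_tracer_Dam of index set 1, against 0 and 0 CPM in their replicates and 0.04 and 0.08 CPM in the uninduced libraries of sets 1 and 2. All 20 chromatin genes tied to proliferation were negative in both libraries, against 6968 of the 17262 genes tested. Of the 20, 6 were past 2-fold, among them the histone variant gene H2AFX and the condensin subunits NCAPD2 and NCAPH. H2AFX had 49.1 and 42.5 CPM in GFP_tracer and GFP_tracer_Dam of index set 1, against 187 and 178 CPM in their replicates and 199 and 182 CPM in the uninduced libraries.

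Among apoptosis regulators 3 of 20 were higher and 1 lower in both, with list medians of 0.18 and 0.17. The higher ones were PMAIP1 (NOXA) and BMF, which promote cell death, and BCL2A1, which opposes it, and the lower one was BCL2, which also opposes it. BCL2 had 4.71 and 4.40 CPM in the index-set-1 libraries, against 8.22 and 8.39 CPM in their replicates and 9.28 and 7.41 CPM in the uninduced libraries. The share of counts from genes that do not code for protein was 2.92% and 3.05% in GFP_tracer and GFP_tracer_Dam of index set 1, against 2.24% and 2.08% in their replicates and 2.43% and 2.27% in the uninduced libraries. The part of RNA quality in these shares was not tested.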
